A study of Mus musculus with 12 samples.

Results

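The L1M elements are old, inactive copies of L1 LINE retrotransposons, and their RNA was followed here through a purification of the L1 protein ORF1p. A row was taken as L1M where its repeat family was L1 and its name began with L1M followed by a capital letter from A to E or by a digit, which leaves out the young mouse L1Md elements. The rule found 40909 of the 781935 listed repeat loci and 84 of the 1528 repeat subfamilies. L1M2a1 had reads in only 1 library, so 83 L1M subfamilies passed the minimum mean of 10 normalised reads over the 12 libraries, out of 1180 subfamilies tested. The choice used names alone and no measured value.

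The libraries were RNA-seq of testes from C57BL/6 mice that all carried the same Mael-/- genotype, at 3 months of age. Mael is a gene of the piRNA pathway, and spermatocytes without it overexpress L1 and hold ORF1p in large cytoplasmic bodies. Each of 4 groups had 3 libraries that the series describes as biological replicates. TOTAL was RNA of the whole testis extract. INPUT was RNA of pooled sucrose gradient fractions of the extract, made with EDTA, which takes ribosomes apart. IP was RNA that came down from INPUT on beads with an antibody to ORF1p, and BO was RNA on beads without an antibody. No wild-type library was among them, so every value below is of Mael-/- testes and none shows what the loss of Mael changed. Whole testes also mean that fewer cells of a type and less RNA per cell cannot be told apart.

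L1 elements copy themselves through an RNA that encodes ORF1p, an RNA-binding chaperone, and ORF2p, an endonuclease and reverse transcriptase. Both proteins prefer the RNA that encoded them. The L1M elements stopped copying long before mice existed. They survive as mutated, mostly truncated pieces that lie between genes or within introns and untranslated regions, so that their sequence is commonly read as part of a host transcript. The letters of the names run roughly from the younger L1MA to the older L1ME, and the numbered names such as L1M4 and L1M5 are defined from other parts of the element. The L1Md elements, by contrast, include the families that are active in the mouse.

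Between 60921 and 203832 reads per library fell on L1M subfamilies, and reads on all repeat subfamilies numbered 1384904 to 7282171 per library. The 7SL RNA, a structural RNA outside the transposable elements, took 38.1 to 51.6% of the repeat reads in TOTAL and 1.16 to 1.63% in IP. The third BO library stood apart, with 52.1% of its repeat reads on LSU rRNA against 1.93 to 15.9% in the other 11 libraries. The counts and fold changes of subfamilies against BO, the L1M share of transposon reads and the ratio of L1M to L1Md were therefore also computed without it. The other ratios include it, and so do all values of single loci in BO, which the tables hold only as means over the 3 libraries. As a check of tissue, the spermatocyte marker Sycp1 had a mean of 9433 normalised reads in TOTAL, the Leydig cell marker Cyp17a1 29894, and the spermatid marker Tnp1 30.1, while the epididymis marker Lcn5 was at 0. Mael itself had a mean of 0.650 in TOTAL.

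The first question was how much of the transposon RNA was L1M in each preparation. L1M made up 5.86, 5.32 and 5.34% of the reads on LINE, SINE, LTR and DNA elements in the 3 TOTAL libraries. The INPUT libraries had 5.47, 5.15 and 5.03%. The share was 6.70, 6.60 and 6.18% in BO and 5.08, 5.58 and 5.88% in IP. On this measure BO lay above every library of the other groups, and IP overlapped TOTAL and INPUT. The mean was 6.49 ± 0.277% in BO against 5.51 ± 0.401% in IP (SD, n = 3 each), a difference of -0.978 percentage points for IP (two-sided exact permutation test, p = 0.1). This p is the smallest that 3 libraries against 3 can give, and it came to 0.152 after Benjamini-Hochberg adjustment over the 35 comparisons of shares and ratios. Between IP and TOTAL the share differed by 0.00303 percentage points (exact permutation p = 1). The order was another when the denominator was all repeat reads, which include 7SL RNA and LSU rRNA. L1M then made up 2.30, 1.36 and 1.33% in TOTAL, 3.51, 3.06 and 2.96% in INPUT, 5.80, 5.76 and 2.55% in BO and 4.40, 4.85 and 4.97% in IP. The IP libraries lay above all TOTAL and INPUT libraries, and the third BO library lay below all INPUT and IP libraries.

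**Figure D1:**
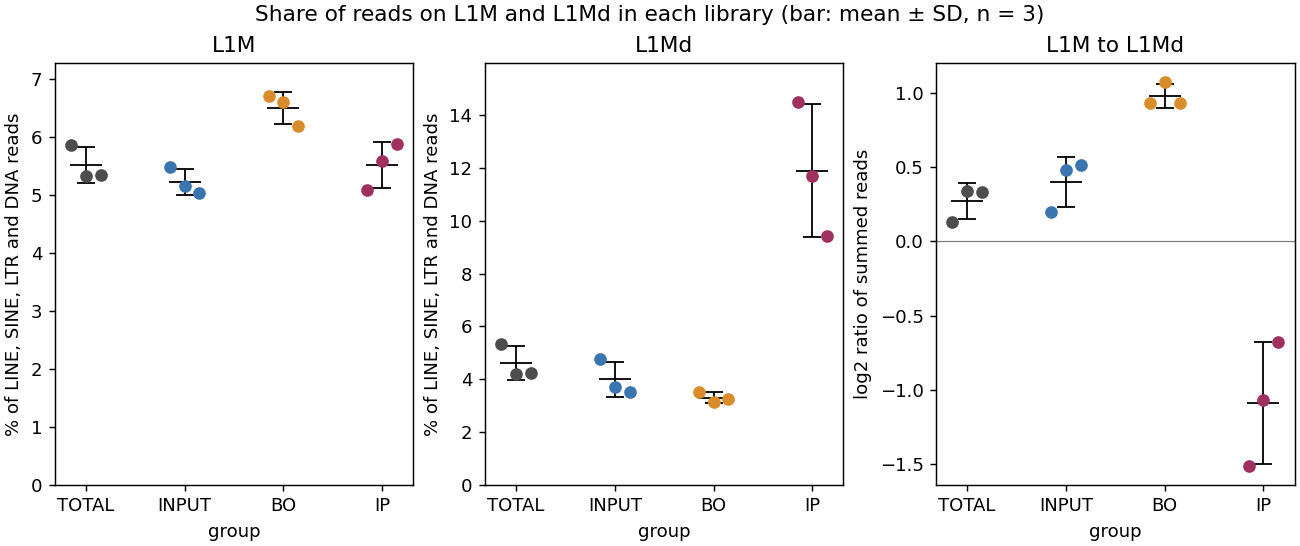
The left and middle panels plot L1M and L1Md as a percentage of LINE, SINE, LTR and DNA reads, and the right panel the log2 ratio of the 2 sums, with 1 point per library and bars for mean ± SD in the 4 groups. L1M stayed between 5.03 and 6.70% in all libraries, whereas L1Md reached 9.43 to 14.5% in IP against 3.14 to 5.34% in the others.

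The L1Md elements, taken as all 6 subfamilies of that name, active families and older ones alike, gave the contrast. They took 14.5, 11.7 and 9.43% of transposon reads in IP and 3.52, 3.14 and 3.23% in BO. The log2 ratio of L1M to L1Md was 0.27 ± 0.12 in TOTAL, 0.40 ± 0.17 in INPUT, 0.98 ± 0.08 in BO and -1.09 ± 0.41 in IP (SD, n = 3 each). All 3 IP libraries lay below 0 and all other libraries above it. The ratio in IP differed from that in INPUT by -1.49 and from that in BO by -2.07 (exact permutation p = 0.1 for each, adjusted p = 0.152). Without the third BO library the difference from BO was -2.09, and that in the share of transposon reads -1.14 percentage points. Within the L1 family, L1M held 33.1 ± 0.846% of the reads in BO and 21.0 ± 2.85% in IP. Among transposon reads, L1M RNA was thus present in IP at close to its share in TOTAL, while L1Md RNA was present at a higher share there. The transposon reads include L1Md, so the higher L1Md share in IP by itself lowers the L1M share there. This bears on the differences of IP from BO and from TOTAL alike, and a share without L1Md was not computed.

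L1M was then set against other old or inactive elements within each library. Lx elements are another group of older L1 copies, found in rodents. The log2 ratio of L1M to Lx was 0.20 ± 0.05 in BO, 0.21 ± 0.06 in INPUT and 0.10 ± 0.02 in IP. The L2 elements are another extinct LINE family and MIR elements are SINEs that were copied by it. The ratio of L1M to L2 was 1.90 ± 0.14 in INPUT, 2.33 ± 0.06 in BO and 2.08 ± 0.01 in IP, and that to MIR was 1.18 ± 0.10, 1.71 ± 0.08 and 1.45 ± 0.03. For both L2 and MIR, INPUT, BO and IP did not overlap, with BO highest and INPUT lowest (exact permutation p = 0.1 and adjusted p = 0.152 for BO against INPUT and for IP against INPUT). TOTAL had 2.03 ± 0.16 for L2 and 1.39 ± 0.14 for MIR. It overlapped IP in both (exact permutation p = 0.500 and 0.400). The ratio of L1M to Lx in IP differed from BO by -0.10 and from INPUT by -0.11, without overlap (exact permutation p = 0.1 and adjusted p = 0.152 for each), and its difference between BO and INPUT was -0.01 (exact permutation p = 0.600). TOTAL had 0.18 ± 0.10 and overlapped IP, which differed from it by -0.07 (exact permutation p = 0.300). For L1_Mus, L1_Mur, L1_Mm and L1VL elements together the ratio was 0.65 ± 0.01 in TOTAL and 0.66 ± 0.08 in IP. It was 0.83 ± 0.03 in INPUT and 0.82 ± 0.05 in BO. There IP overlapped TOTAL but neither INPUT nor BO (exact permutation p = 0.1 and adjusted p = 0.152 for each of the latter).

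The subfamilies were tested singly next, with limma on log2 values across all 12 libraries and all 1180 subfamilies. A subfamily counts as called where its log2 fold change was past 1 in size and its Benjamini-Hochberg adjusted p was under 0.05. Fold changes here compare groups after upper-quartile scaling, not amounts of RNA per testis.

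Bare beads held more RNA of most L1M subfamilies, relative to the other repeats, than INPUT did. In BO against INPUT, 43 of 83 L1M subfamilies were higher at an adjusted p under 0.05 at any size (51.8%), whereas 17.2% of all subfamilies were. Only L1ME3A was lower, with a log2 fold change of -0.36, beside 11.7% of all subfamilies. Of the 83, 4 were called higher (background 2.63%) and 0 lower (background 2.80%). With edgeR 0 were called in either direction, beside 26 higher and 41 lower over all 1180. By an adjusted p under 0.05 edgeR had 36 L1M subfamilies higher and 1 lower, beside 166 and 179 over all. At an unadjusted p under 0.05 limma gave 52 of the 83 higher and 1 lower. The median log2 fold change over L1M was 0.35, beside 0.03 over all subfamilies. The Lx elements had a median of 0.37 and the L1_Mus, L1_Mur, L1_Mm and L1VL elements one of 0.41, so the shift was not limited to L1M. L1Md had 0.07, L2 0.00 and MIR -0.13. Leaving out the third BO library left 44 L1M subfamilies higher and 4 called, beside 193 and 35 over all 1180. Leaving out the third INPUT library left 23 L1M subfamilies higher and 0 called, with medians of 0.30 over L1M and 0.04 over all. The share over all subfamilies is not given for that fit. Under library totals 0 were higher at an adjusted p under 0.05, although the L1M median was 0.40.

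The 4 called subfamilies were L1MA8, L1MA4, L1ME4a and L1M2a. L1MA8 had 1221, 1141 and 1042 normalised reads in INPUT and 2275, 2551 and 2227 in BO. All 3 BO values were above every INPUT value, with a log2 fold change of 1.05 ± 0.10 (SE; limma adjusted p = 1.83e-05). L1MA4 had 2737, 2426 and 2295 reads in INPUT and 5806, 5294 and 4312 in BO. Again the groups did not overlap, and the log2 fold change was 1.04 ± 0.11 (adjusted p = 4.50e-05). L1ME4a rose from 1461 ± 225 to 2973 ± 306 reads (log2 fold change 1.03, adjusted p = 0.000381). L1M2a, a subfamily with few reads, rose from 133 ± 15.9 to 271 ± 13.1 (SD, n = 3; log2 fold change 1.02, adjusted p = 0.000208). All 4 lie close to the threshold of 1, and 0 of them were called when libraries were scaled by their reads on transposable elements.

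**Figure D2:**
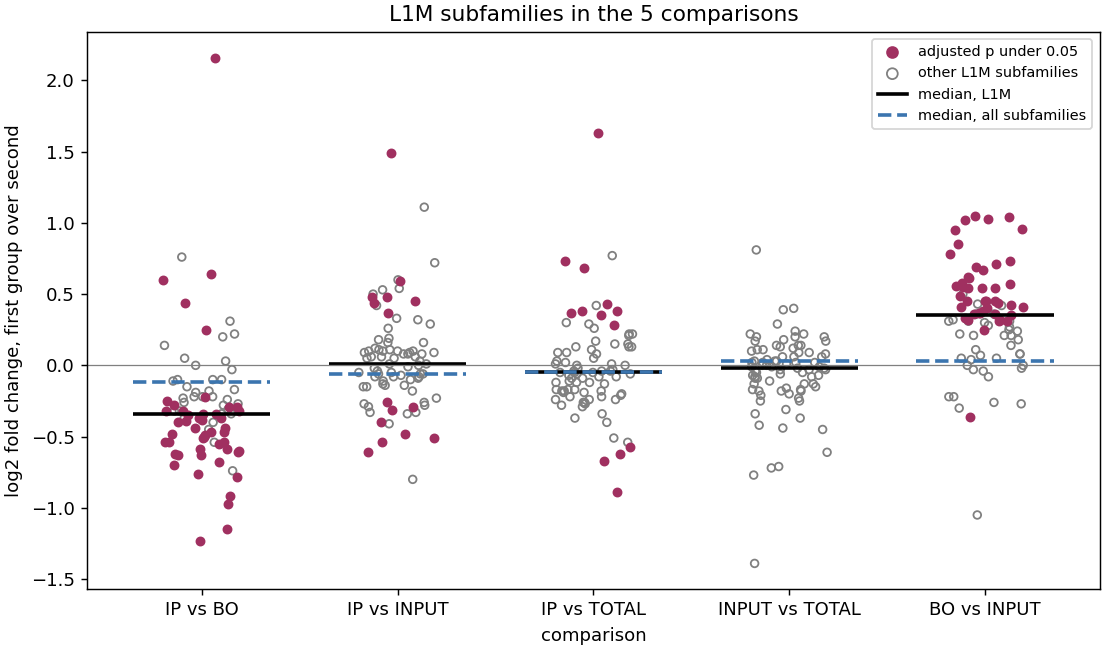
Each point is 1 of 83 L1M subfamilies and the y axis its log2 fold change in the comparison named on the x axis, filled where the adjusted p was under 0.05. The solid line is the L1M median and the dashed line the median of all 1180 subfamilies, which lie 0.32 apart in BO vs INPUT, -0.21 apart in IP vs BO and within 0.08 in the rest.

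The antibody beads were compared with the bare beads to learn what the antibody added. Here 43 of 83 L1M subfamilies were lower in IP at an adjusted p under 0.05 (51.8%, background 23.2%) and 5 were higher (background 11.3%). Since BO stands in both comparisons, the low values against BO and the high values of BO against INPUT rest on the same 3 BO libraries and are not 2 separate findings. The called members were 2 lower (background 3.81%) and 1 higher (background 5.08%). The median over L1M was -0.34, beside -0.12 over all subfamilies, and 65 of the 83 lay below the latter. L1Md had a median of 1.27, Lx -0.17 and MIR -0.10. With the reads recovered from the normalised values, edgeR gave 24 L1M subfamilies lower and 6 higher and called 2 lower and 1 higher. Over all 1180 subfamilies edgeR had 175 lower and 181 higher, and called 35 lower and 64 higher. Without the third BO library, 39 L1M subfamilies were lower and 3 higher, beside 248 and 134 of all 1180. Leaving out the second BO library gave 27 L1M subfamilies lower, with medians of -0.30 over L1M and -0.13 over all. Leaving out the first gave 4 called lower, with medians of -0.31 and -0.14. Shares over all subfamilies are not given for these 2 fits. Scaling by library totals left 0 lower at an adjusted p under 0.05, with an L1M median of 0.16 beside 0.36 over all subfamilies, and scaling by reads on transposable elements left 23 lower.

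L1MA4 showed the largest drop from BO among subfamilies with a mean of at least 100. Its IP libraries had 2155, 2356 and 2408 reads, below every BO value given above. The log2 fold change was -1.15 ± 0.11 (limma adjusted p = 8.47e-06). This call was not kept in 2 of 17 alternatives, with a log2 fold change of -0.65 under library totals. The IP libraries of L1MA4 overlapped INPUT and TOTAL. L1MA5A behaved alike, with 1035, 1315 and 981 reads in BO and 547, 548 and 597 in IP (log2 fold change -0.97 ± 0.12, adjusted p = 8.11e-05). L1M3c had 110, 84.6 and 88.2 reads in BO and 47.1, 39.7 and 32.2 in IP. Its groups did not overlap and its log2 fold change was -1.23 ± 0.19 (adjusted p = 0.000352), but between 31 and 176 reads per library lay behind these values. L1M3c was also lower in IP than in INPUT, where it had 60.8 ± 7.59 reads (log2 fold change -0.61, adjusted p = 0.0289). This difference did not pass an adjusted p of 0.05 in 10 of 16 alternatives, with adjusted p = 0.0583 in edgeR, 0.0876 in DESeq2 and a log2 fold change of -0.08 under library totals.

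Of the 5 subfamilies higher in IP than in BO, L1ME3B had the largest change among those with a mean of at least 100. It had 1098, 1203 and 1119 reads in BO and 2105, 1791 and 1494 in IP, so that every IP library exceeded every BO library (log2 fold change 0.64 ± 0.11, adjusted p = 0.000866). L1MEi followed with 151, 74.2 and 122 reads in BO and 159, 178 and 171 in IP (log2 fold change 0.60 ± 0.22, adjusted p = 0.0481). The first BO library nearly reached the lowest IP library, and without the second BO library the log2 fold change was 0.31 (adjusted p = 0.163). The difference of L1MEi did not pass an adjusted p of 0.05 in 7 of 17 alternatives. L1M2b was the only subfamily called higher, with 3.74, 7.81 and 11.2 normalised reads in BO and 48.5, 29.5 and 29.3 in IP (log2 fold change 2.16 ± 0.53, adjusted p = 0.00731). These were 6, 6 and 7 reads in BO and 33, 23 and 30 in IP. The fold change of so few reads moved with the pseudocount, to 1.38 with a pseudocount of 10. The TOTAL libraries had 20.4, 59.3 and 61.7 and overlapped IP. The remaining 2 were L1ME3A and L1MB5, with log2 fold changes of 0.44 and 0.25.

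**Figure D3:**
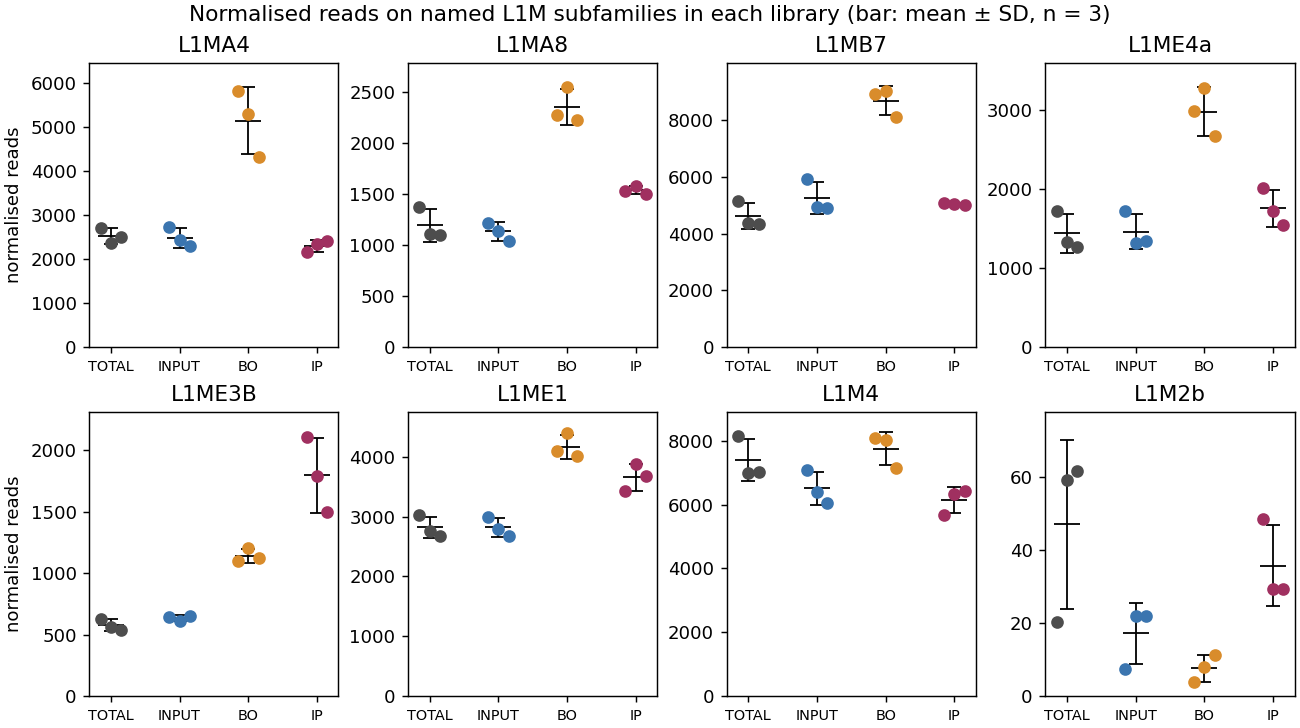
Each panel plots the normalised reads (y axis from 0) on 1 L1M subfamily, with 1 point per library and bars for mean ± SD in the 4 groups. BO is highest for L1MA4, L1MA8, L1MB7, L1ME4a and L1ME1, whereas L1ME3B is highest in IP, at 1494 to 2105 reads, and L1M2b lowest in BO, at 3.74 to 11.2.

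The precipitate was also compared with the extract before the beads. In IP against INPUT, 7 of 83 L1M subfamilies were higher (background 11.0%) and 8 lower (background 16.7%) at an adjusted p under 0.05. Their median log2 fold change was 0.01, beside -0.06 over all subfamilies, 0.19 for Lx and -0.23 for MIR, while the 6 L1Md subfamilies lay between 0.54 and 2.07. Under upper-quartile scaling L1M thus moved little as a group, at shares of called members close to or below the background. L1ME3B was the only called subfamily (background 3.22% higher), and 0 were called lower (background 2.88%). At an unadjusted p under 0.05 limma gave 12 lower, and edgeR and DESeq2 also called 0 lower, beside 31 and 33 over all subfamilies. Library totals gave an L1M median of 0.56, beside 0.47 over all subfamilies. That scaling had 6 L1M subfamilies called higher and 0 lower by adjusted p. L1ME3B had 642, 607 and 654 reads in INPUT against 2105, 1791 and 1494 in IP. The IP libraries were thus far above all INPUT libraries, and the log2 fold change was 1.49 ± 0.11 (limma adjusted p = 3.57e-06). It was also higher in BO than in INPUT, by 0.85 ± 0.11 (adjusted p = 0.000266), so a rise from INPUT was also seen on beads without antibody.

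The other 6 that rose from INPUT to IP were smaller changes. L1ME1, one of the 6 most abundant subfamilies, had 2994, 2795 and 2679 reads in INPUT and 3426, 3877 and 3681 in IP (log2 fold change 0.37 ± 0.08, adjusted p = 0.00320). In BO it had 4096, 4399 and 4017, above all IP libraries. L1MA8 rose by 0.44 ± 0.10 (adjusted p = 0.00552) and was likewise highest in BO. The rest were L1MEj at 0.59, L1MB5 at 0.48, L1M4b at 0.48 and L1MD2 at 0.45. Those lower in IP than in INPUT were L1M3c at -0.61, L1M6B at -0.54, L1ME4c at -0.51, L1MCc at -0.48, L1ME3 at -0.40, L1MC at -0.31, L1MC4 at -0.29 and L1ME4b at -0.26. This count of 8 was among the least steady, since leaving out 1 library gave between 1 and 6, with 1 left without the first INPUT library and 2 without the second IP library. Counts over all subfamilies are not given for those fits.

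Against TOTAL, IP had 9 of 83 L1M subfamilies higher (background 10.2%) and 4 lower (background 12.5%). The median was -0.05, the same as over all subfamilies. L1ME3B was again the only one called higher (background 2.88%), from 628, 563 and 537 reads in TOTAL (log2 fold change 1.63 ± 0.11, limma adjusted p = 1.88e-06). None was called lower (0 of 83, background 3.47%), with 11 lower at an unadjusted p under 0.05. edgeR and DESeq2 also called 0 lower, beside 38 and 35 over all subfamilies. L1MEi was higher by 0.73 ± 0.22 (adjusted p = 0.0326, not passed in 5 of 17 alternatives) and L1MB5 by 0.68. The lower ones were L1M6B at -0.89, L1MA7 at -0.67, L1M3c at -0.62 (not kept in 10 of 16 alternatives) and L1ME3 at -0.57. The count of 9 higher fell to 4 without the third TOTAL library and to 5 without the second IP library, fits whose counts over all subfamilies are not given. Under library totals the L1M median and that of all subfamilies both stood at 1.49. By adjusted p, 82 L1M subfamilies were then higher and 0 lower. The comparisons of IP with BO, INPUT and TOTAL share the 3 IP libraries.

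INPUT and TOTAL asked whether the gradient step itself had changed the L1M RNA. By limma, 0 of 83 subfamilies were higher and 0 lower at an adjusted p under 0.05, where 0.847% of all subfamilies were higher and 0.847% lower, and 0 were called (background 0% higher and 0.339% lower). At an unadjusted p under 0.05 limma had 6 higher and 7 lower. edgeR and DESeq2 each had 1 L1M subfamily lower by adjusted p, beside 13 and 41 over all subfamilies. With the replicate number as a block, 2 of 83 were lower, L1MEg at -0.45 (adjusted p = 0.0497) and L1MA7 at -0.44 (adjusted p = 0.0352), and over all subfamilies 35 were higher and 32 lower. The median was -0.02, beside 0.03 over all subfamilies. Under library totals the L1M median was 0.98 and that of all subfamilies 1.03. Within the 3 same-numbered pairs, the L1M share of transposon reads differed by -0.393, -0.178 and -0.311 percentage points in INPUT, lower in 3 of 3. The log2 ratio of L1M to L1Md differed by 0.07, 0.14 and 0.18, higher in 3 of 3 (exact sign-flip permutation p = 0.250 for each measure, the smallest that 3 pairs can give).

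The most abundant members differed among themselves. The 6 highest means over the libraries belonged to L1M4, L1M5, L1M2, L1MB7, L1MB8 and L1ME1, which together held 32.8% of the L1M signal. L1M4 had 7383 ± 660 reads in TOTAL, 6511 ± 521 in INPUT, 7752 ± 525 in BO and 6135 ± 415 in IP (SD, n = 3 each). It was lower in IP than in BO (log2 fold change -0.34, adjusted p = 0.0114), while its difference from INPUT did not pass (adjusted p = 0.530). L1M5 had 8158, 8468 and 7489 reads in BO and 6147, 6833 and 6782 in IP (log2 fold change -0.29, adjusted p = 0.0319). The difference of L1M4 did not keep its direction with an adjusted p under 0.05 in 5 of 17 alternatives and that of L1M5 in 9, edgeR and DESeq2 among them for both. L1M2 was lower in IP than in BO by more, at -0.70 (adjusted p = 0.000357). L1MB7 had the highest value of any L1M subfamily in any library, with 8905, 9023 and 8098 reads in BO, and 5061, 5034 and 5007 in IP. The 3 IP libraries lay close together and far below BO (log2 fold change -0.78, adjusted p = 4.38e-05), and within the range of INPUT. L1MB8 did not pass between IP and BO (log2 fold change -0.15, adjusted p = 0.139), but was higher in IP than in TOTAL by 0.28 (adjusted p = 0.0206, not passed in 4 of 17 alternatives). L1M4, L1M5 and L1M3c changed direction when libraries were scaled by their totals, as given in the closing section.

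The name groups were then compared. In BO against INPUT, 8 of 9 L1MA subfamilies were higher at an adjusted p under 0.05, with a median of 0.49, as were 4 of 7 L1MB (median 0.32), 6 of 11 L1MC (0.25), 4 of 6 L1MD (0.34), 12 of 27 L1ME (0.36) and 9 of 23 of the numbered names (0.30). These shares stand beside the 17.2% of all subfamilies. In IP against BO, where 23.2% of all subfamilies were lower, 8 of 9 L1MA were lower (median -0.61), 3 of 7 L1MB (-0.22), 9 of 11 L1MC (-0.44), 3 of 6 L1MD (-0.21), 9 of 27 L1ME (-0.31) and 11 of 23 numbered ones (-0.32), while 3 L1ME, 1 L1MB and 1 numbered subfamily were higher. In BO against INPUT, 1 L1ME subfamily was lower. L1MA, the youngest of these groups, had the median farthest from 0 in both, and no test was made of the difference between name groups. As a share of L1M reads, L1MA made up 15.9, 15.6 and 14.9% in BO and 12, 12.5 and 12.3% in IP, with no overlap. L1ME made up 18.8, 18.6 and 19.2% in BO and 21.8, 20.9 and 20.2% in IP. In TOTAL L1MA made up 13.0, 13.3 and 13.5%, above IP. L1ME made up 20.8, 19.6 and 19.3% there and overlapped IP.

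**Figure D4:**
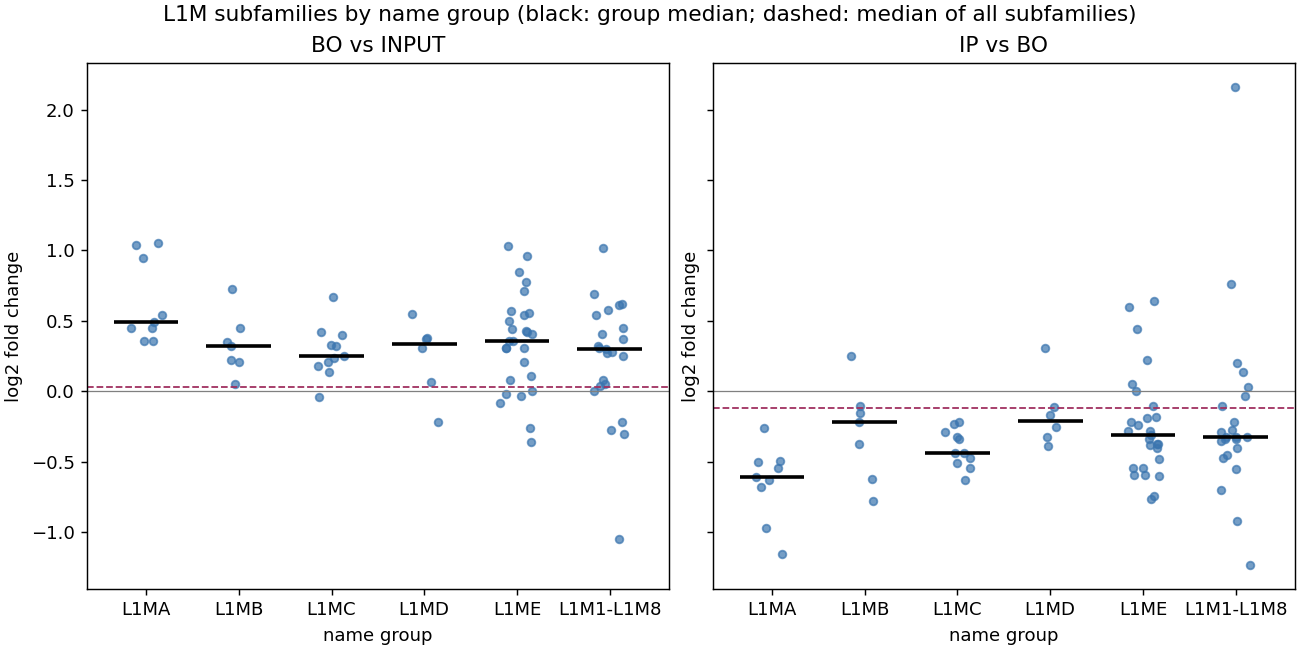
Each point is the log2 fold change of 1 L1M subfamily, grouped by name on the x axis, for BO vs INPUT (left) and IP vs BO (right), with the median of each name group as a black line and that of all subfamilies dashed. L1MA has the median farthest from 0 in both panels, at 0.49 and -0.61, and the L1ME and numbered names scatter most widely.

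Single loci were read from 3 tables, each of which pairs IP with another group as group means, so no error or test can be given at this level. A locus is named here by its subfamily and a running number, since the tables hold no coordinates. The highest running numbers of the L1M subfamilies sum to 226415, and the 40909 listed loci are 18.1% of that. Of them, 37485 had a value above 0 in at least 1 group. A value above 0 was found at 20159 loci in TOTAL, 19675 in INPUT, 15914 in BO and 19597 in IP. Most were barely covered. In the table with BO, 1 read in 1 IP library adds between 0.249 and 0.323 to the IP mean, and 8448 loci stood at the value of 1 read. Between 30.5 and 39.6% of the IP reads that the subfamily table puts on L1M are found at the listed loci, the range reflecting which library the reads came from.

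The signal was spread over many loci. The fewest loci that together held 50% of the summed L1M value numbered 1895 in TOTAL, 1556 in INPUT, 1448 in BO and 1861 in IP. The highest single locus held 0.624% of the sum in TOTAL, 0.870% in INPUT, 0.774% in BO and 1.18% in IP. This covers the listed loci and not the reads on L1M that lie outside them.

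Loci whose 2 group means averaged at least 10 were compared by their log2 ratio with a pseudocount of 1. Against BO, 165 of 297 L1M loci were more than 2-fold lower in IP (55.6%, background 47.7% of all such repeat loci) and 28 more than 2-fold higher (9.43%, background 17.2%). The median log2 ratio was -1.13, beside -0.90 over all repeat loci. These values include the third BO library, and its part in them was not tested. Centring on the median gene, which lay at 0.81 in that table, gave 15 L1M loci higher (5.05%, beside 8.30% of all repeat loci) and 230 lower (77.4%, beside 64.7%), with medians of -1.94 and -1.71. Against INPUT, 61 of 326 were higher (18.7%, background 22.1%) and 105 lower (32.2%, background 31.2%), with a median of -0.35 beside -0.25. Against TOTAL, 50 of 300 were higher (16.7%, background 24.1%) and 62 lower (20.7%, background 24.3%), with a median of -0.07 beside 0.01. A minimum of 50 left 20 loci against INPUT, with a median of -0.01, and 17 against TOTAL, with a median of 0.34.

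The loci with the highest ratios in IP were picked for these ratios, which are therefore given as a description. L1M5_13607 had a mean of 34.6 in BO and 273 in IP, a log2 ratio of 2.94. The same locus had 75.2 in INPUT and 69.6 in TOTAL, against 358 and 356 in IP as scaled in those tables (log2 ratios of 2.24 and 2.34). L1MD2_1557 had 8.69 in BO and 108 in IP, the highest log2 ratio to BO (3.49) among loci whose 2 group means averaged at least 50, a minimum that it passed only through IP. It had 21.8 in INPUT and 19.4 in TOTAL (log2 ratios of 2.65 and 2.79). L1M4_4544 had 22.5 in BO, 42.3 in INPUT and 43.9 in TOTAL, with log2 ratios of 2.05, 1.55 and 1.49. The means of these 3 loci were higher in IP than in each other group. L1MC3_4288 was low in TOTAL, at 9.70, and higher in INPUT, at 30.9, with log2 ratios in IP of 3.08 to TOTAL, 1.51 to INPUT and 1.82 to BO. The minimum of 50 was also passed only through IP by L1M4_4544, by L1M5_13607 against BO and by L1MC3_4288 against INPUT.

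Other loci were lower in IP than in BO, most of them picked in the same way for their low ratios. All that were so picked had an IP mean below the minimum set on the average of the compared group means. They passed it only through the group that IP was compared with. L1MA6_2185 had 161 in TOTAL, 175 in INPUT and 173 in BO, and only 26.1 in IP as scaled with BO (log2 ratios of -2.22, -2.31 and -2.68). L1MA6_3912, of the same subfamily, was highest in BO at 181 and had 21.6 in IP (log2 ratio -3.01). L1MA5_148 had 127 in TOTAL, 144 in INPUT and 90.8 in BO against 24.5 in IP. L1MEd_471 and L1ME3D_228 were highest in BO, at 94.5 and 96.9, with log2 ratios of IP to BO of -2.99 and -2.55. L1MEd_331 held the highest BO mean of any L1M locus, 273, against 92.4 in IP (log2 ratio -1.55), yet its IP value was above INPUT and TOTAL (log2 ratios of 0.47 and 0.69).

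A few loci differed between the stages of the preparation. Their TOTAL, INPUT and BO means were scaled apart and are not 1 series, whereas each log2 ratio to IP is within 1 scaling. L1MEg_1159 had the highest TOTAL mean of all L1M loci, 199, but 21.8 in INPUT and 1.91 in BO, and 10.1 in IP as scaled with BO. Its log2 ratio of IP to TOTAL was -3.81, whereas that of IP to BO was 1.93. This locus was picked for its low ratio to TOTAL, and passed the minimum average of the compared group means only through TOTAL. The subfamily L1MEg had 2513 normalised reads in the first TOTAL library and 1556 and 1455 in the others. Whether 1 library carried the TOTAL mean of this locus cannot be seen in group means. L1ME3_315 had 188 in TOTAL, 81.6 in INPUT and 47.0 in BO, and 21.8 in IP as scaled with BO. Its log2 ratios in IP were -2.68 to TOTAL, -1.48 to INPUT and -1.07 to BO. It was picked for its sum and for the first 2 of these ratios, where it passed the same minimum only through TOTAL and through INPUT. L1ME1_125, with the highest sum over the groups, had 149 in TOTAL, 272 in INPUT and 218 in BO, and its log2 ratios in IP were 0.92 to TOTAL, 0.06 to INPUT and -0.01 to BO. L1ME3G_900 had 101 in TOTAL, 160.0 in INPUT and 151 in BO, with log2 ratios in IP of -0.28, -0.93 and -1.23. L1ME1_1981 had log2 ratios of 1.49 to TOTAL and 1.38 to INPUT, but -0.50 to BO. It was picked for its high ratio to TOTAL. It passed the minimum average of the compared group means only through IP, with 37.0 in TOTAL and 106 in IP.

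**Figure D5:**
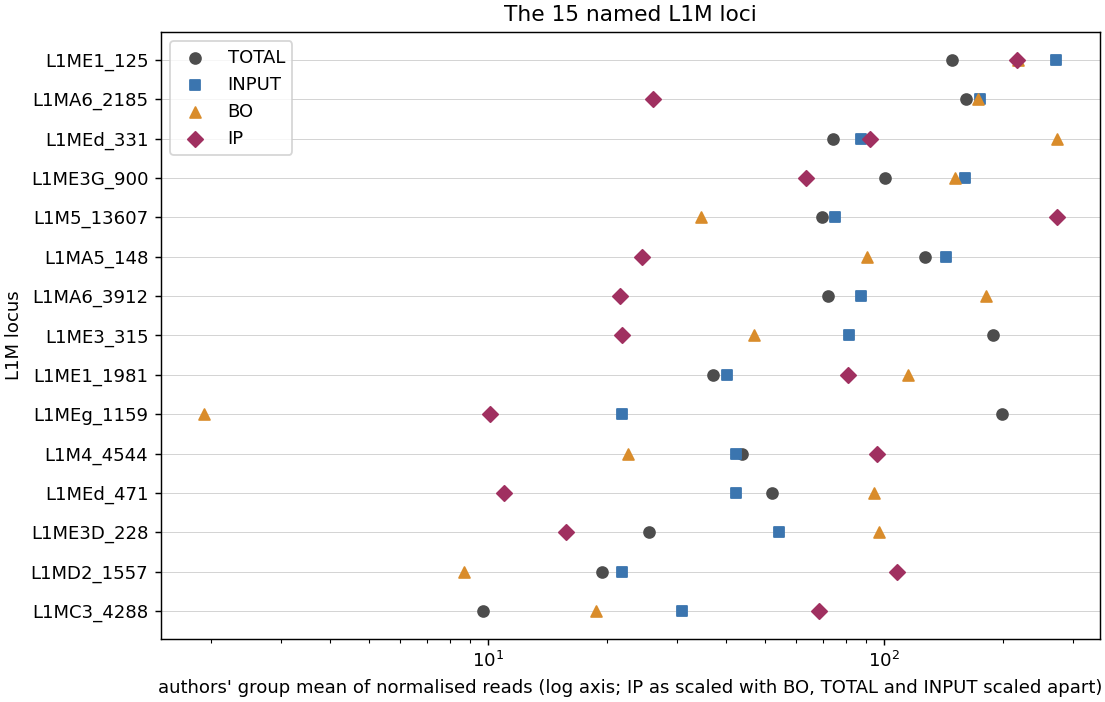
The x axis (log scale) is the authors' group mean of normalised reads and the y axis the 15 named L1M loci, ordered by their sum over the 4 groups, with 1 symbol per group. TOTAL, INPUT and BO come from separately normalised tables, and IP is drawn as scaled with BO. L1M5_13607, L1M4_4544, L1MD2_1557 and L1MC3_4288 have IP to the right of all other groups, and L1MA6_2185 has it far to the left.

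The listed loci did not carry the changes of every subfamily. L1ME3B has 144 listed loci, which summed to 95.5 in INPUT and 91.4 in IP (log2 ratio -0.06), while the subfamily table had a log2 fold change of 1.49. Against TOTAL the loci gave a log2 ratio of 0.02, against 1.63 by subfamily. Across 58 L1M subfamilies with a locus sum averaging at least 50, this was the largest gap of that direction in both comparisons. L1M2b has 4 listed loci with a sum of 3.03 in IP and 6.06 in BO, so that its rise was not seen there either. L1MA4 has 1249 listed loci, which summed to 1034 in BO and 634 in IP, a log2 ratio of -0.70 in the direction of the subfamily's -1.15. The log2 ratios of IP to BO from loci were below 0 for 55 of 57 subfamilies, with a median of -0.54, beside -0.34 in the subfamily table. Pearson's r between the 2 tables across subfamilies was 0.24 for IP against BO, 0.38 against INPUT and 0.52 against TOTAL. These are descriptions across subfamilies that share the same libraries, and the 2 tables were scaled differently.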

How the data were processed

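RNA from Mael-/- testes was sequenced by the authors as stranded, ribosomal RNA-depleted, single-end libraries (4 groups, 3 each). IP libraries were made from less RNA than TOTAL and INPUT libraries. For BO the volume was matched to that of the IP sample, and the study states no amount of RNA. Per the submitters' processing notes, reads were mapped to mm10 with STAR 2.6.0c, and DESeq2 1.24.0 was used. The study's methods allowed a read up to 100 places, assigned reads to repeats with Telescope, summed them by subfamily and scaled by upper quartile with EBSeq. The deposited subfamily values are thus a normalised signal, and whole reads were recovered for 100.0% of them within 0.1. The deposited tables of loci hold a signal as the authors' group means, scaled per table. Telescope assigns reads to single loci, but whether these tables rest on its counts is not given in the sources used here. Their columns of the authors' own fold changes and p-values were not used.

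Subfamilies averaging 10 or more normalised reads across the 12 libraries were fitted with limma 3.58.1 (R 4.3.3) on log2(value + 1), all 4 groups together, with Benjamini-Hochberg adjustment over 1180. Fold changes are on that scale. The procedure was tested on simulated data. edgeR 4.0.16 and DESeq2 1.42.0 on the recovered reads, other pseudocounts, minimum means and scalings, a replicate block and leaving out each library were the alternatives. Over all subfamilies, in IP against BO, edgeR called 64 higher and 35 lower. INPUT was made from TOTAL, and same-numbered TOTAL and INPUT libraries deviated together (r = 0.321 to 0.629 over subfamilies, 3 of 3 pairs over 0.1), so the blocked value is given for that comparison. Shares and ratios per library were compared with exact permutation tests (scipy 1.17.1). Reads are not unique molecules, and the p-values measure the spread between these libraries.

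Named subfamilies are the 6 with the highest mean, those called in any comparison, and the 2 highest and 2 lowest in IP against BO with a mean of at least 100. Subfamilies past the adjusted p threshold in IP against INPUT or TOTAL, in the smaller direction against BO or in BO against INPUT were named after their values were seen. Named loci are the 8 with the highest sums, and, where the 2 group means averaged at least 50, the 4 highest and 4 lowest ratios of IP to each other group. Members and lists were chosen with earlier results of these data known. Position in host genes and sequences of the loci were not analysed here.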

Additional observations from a re-analysis of the deposited data

How the results depend on the processing

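Of the processing choices, scaling mattered most. The L1M median minus the median of all subfamilies stayed between -0.26 and -0.17 in IP vs BO and between 0.26 and 0.38 in BO vs INPUT under all 17 alternatives, but absolute fold changes moved with the scaling. Scaling by library totals shifted the median of all subfamilies to 1.49 in IP vs TOTAL, 1.03 in INPUT vs TOTAL, 0.36 for IP against BO and 0.47 for IP against INPUT.

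With library totals, L1M medians were 1.49 in IP vs TOTAL, 0.98 in INPUT vs TOTAL, 0.16 for IP against BO and 0.56 for IP against INPUT. L1M4 (0.16) and L1M5 (0.21) in IP vs BO and L1M3c (0.90) in IP vs TOTAL reversed. Called counts became 3 higher and 0 lower in IP vs BO, 6 higher in IP vs INPUT, 78 higher in IP vs TOTAL, 37 higher in INPUT vs TOTAL and 0 in BO vs INPUT. By adjusted p alone, 82 were higher in IP vs TOTAL, 70 in INPUT vs TOTAL and 0 in BO vs INPUT, and 0 were lower in any comparison. Counts under this and the following scalings stand without a share over all subfamilies. Under library totals they are not read as particular to L1M, since the median of all subfamilies shifted too. With totals over transposable elements, IP vs BO had a median of -0.18, 1 called lower and 23 lower by adjusted p, BO vs INPUT a median of 0.24, 0 called and 26 higher, IP vs INPUT 5 lower, and INPUT vs TOTAL 1 lower. With median ratio scaling, IP vs BO had a median of -0.21 and 25 lower, IP vs INPUT 11 higher and 4 lower, INPUT vs TOTAL 1 lower, and BO vs INPUT 1 called. edgeR gave a median of -0.21 and 24 lower in IP vs BO, 4 lower in IP vs INPUT, 1 lower in INPUT vs TOTAL and 0 called in BO vs INPUT. DESeq2 gave -0.22 and 24 in IP vs BO, 12 higher and 4 lower in IP vs INPUT, 1 lower in INPUT vs TOTAL and 2 called in BO vs INPUT. The cause was not tested.

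A minimum mean of 100, which tests fewer subfamilies, left 0 called higher and 1 lower in IP vs BO and gave 1 lower in INPUT vs TOTAL. No filter, and fitting the compared groups alone, each gave 5 lower in IP vs INPUT. Shares over all subfamilies are not given for these counts. Outside TOTAL and INPUT, pairing by replicate number was not established: no other 2 groups had r over 0.1 in all 3 same-numbered pairs (0.062 to 0.558 for INPUT and BO), and 8 of 12 libraries correlated best with their own number. The replicate block gave 2 lower by adjusted p in INPUT vs TOTAL and kept every other L1M count within 1.5 times.

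Leaving out 1 library gave these ranges. They stand without a share over all subfamilies, except for the fits without the third BO library given above, and are not read as particular to L1M. In IP vs BO, 2 to 4 were called lower (4 without the first BO library), and by adjusted p 3 to 5 were higher and 27 to 41 lower (27 without the second BO library). In IP vs INPUT 1 to 6 were lower. In IP vs TOTAL 0 to 1 were called lower and 4 to 11 were higher by adjusted p (4 without the third TOTAL library). In INPUT vs TOTAL 0 to 1 were higher and 0 to 1 lower. In BO vs INPUT 0 to 6 were called higher (0 without the third INPUT library), and 23 to 46 were higher by adjusted p (23 without the third INPUT library, 25 without the second, 28 without the first BO library).

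Taken within L1 rather than all transposons, the L1M share differed by -8.11 points in IP vs TOTAL, -9.62 in IP vs INPUT, -12.1 in IP vs BO, 1.51 in INPUT vs TOTAL and 2.47 in BO vs INPUT. At loci, a minimum of 50 leaves fewer loci, with 3 higher, 14 lower and a median of -1.23 against BO, 5, 7 and -0.01 against INPUT, and 4, 5 and 0.34 against TOTAL. Centring on the median gene gave 15 higher and a median of -1.94 against BO, and a median of -0.50 against INPUT. The alternatives on place within host genes were not run, as the tables hold no coordinates. Depth limits the loci, of which 8448 stood at 1 read in IP.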
